A study of Homo sapiens with 6 samples.

Results

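The genes described here are 37 enzymes and regulators of cholesterol and fatty acid synthesis, taken from the count table by gene symbol. Each of the 37 symbols matched 1 of the 60623 rows kept, and all 37 passed the filter on low counts that left 17451 genes for testing. They comprise 17 enzymes that turn acetyl-CoA units into cholesterol, 4 regulators of sterol balance and 16 genes that supply, build, desaturate, elongate and activate fatty acids or join them to glycerol. Membership came from known function and used no measured value, but the list was chosen with earlier results of these data known.

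Bulk RNA sequencing had been done on 6 libraries, all labelled as PANC-1, an established human line from a pancreatic ductal carcinoma, grown in DMEM with fetal bovine serum. The titles put 3 libraries in a group with a short hairpin RNA against STN1 (shSTN1) and 3 in a control group with the control hairpin for it (shControl). Genotype labels read STN1, STN2 and STN3 knockdown for the shSTN1-labelled libraries and WT for the controls, and the titles were used for grouping. STN1 belongs to the CST complex, a set of proteins that bind single-stranded DNA and act in telomere replication. The labels call the libraries biological replicates but name no separate cultures, so a p-value here reflects library-to-library spread, some of which may be technical. Neither a vector, a clone nor a time after the hairpin was introduced is stated in the labels.

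Cells in culture make cholesterol from acetyl-CoA through mevalonate, farnesyl diphosphate, squalene and lanosterol, and make palmitate from acetyl-CoA through malonyl-CoA. SREBP2, the product of SREBF2, is the main activator of the sterol genes, and SREBP1, the product of SREBF1, acts more on fatty acid genes. When sterols are plentiful, INSIG proteins hold the SREBP escort SCAP in the endoplasmic reticulum, and INSIG1 is itself a target of SREBPs, so its mRNA is widely read together with the sterol enzymes.

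Read totals ran from 17357223 to 23336942 per library. STN1 had 387, 346 and 278 reads in control libraries 1, 2 and 3 and 303, 306 and 275 in the shSTN1-labelled libraries. The groups overlapped, with a log2 fold change of -0.15 (edgeR quasi-likelihood test, adjusted p = 0.253, and an exact two-sided permutation test gave p = 0.3, where 0.1 is the smallest p that 3 libraries against 3 allow). CDKN2A, which PANC-1 is described as lacking, had 11753 reads in the controls and 0 in the other group, at least 3810-fold lower (floor of 3 reads over the group). Of 14 markers of pancreatic duct and carcinoma lines, 9 were tested, and for the shSTN1-labelled group all 9 were called higher, with a summed CPM (reads scaled to a common library size with TMM factors) of 1040 to 1080 against 6040 to 6220. Of 14 embryonic kidney line markers, 13 were tested, 9 were lower and 2 higher, and their summed CPM was 794 to 899 in the controls and 111 to 116 in the other group, where SALL1 had 0 reads. Fibroblast markers summed to 73.7 to 89.2 against 170 to 183 CPM, with 3 of 4 tested genes higher. Most of that sum came from COL1A1, with means of 46.7 and 124 CPM. DCN, with 6 reads in the controls and 0 in the shSTN1-labelled libraries, had too few reads to be tested. Leukocyte and endothelial markers summed to 5.58 to 7.52 against 5.91 to 6.41 CPM, with CD3E and PECAM1 at 0 in all 6 libraries. The part of these marker differences in the results below was not tested, and a hairpin effect and a difference in cells between the groups cannot be told apart. Fewer cells of a type and less RNA per cell cannot be told apart in bulk samples either.

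Of the 17451 genes tested, 74.1% passed an adjusted p of 0.05, with 35.6% higher and 38.5% lower when shSTN1-labelled libraries were set against controls, and 34.6% passed it with a difference of at least 2-fold. Among the 37 lipid synthesis genes, 29 passed, 10 higher and 19 lower, which is 78.4% and near that background. Only 3 of them passed with at least 2-fold, FDFT1, INSIG1 and ELOVL6, all lower. The groups did not overlap for 28 of the 37, against 75.6% of all genes tested. The median log2 fold change of the 37 was -0.22, beside -0.03 over all genes tested. Read by branch, 7 of the 17 sterol enzymes were higher and 6 lower (median 0.03), 1 of the 4 regulators was higher and 3 lower (median -0.88), and 2 of the 16 fatty acid genes were higher and 10 lower (median -0.39). The TMM factors were 1.06 to 1.08 in the controls and 0.926 to 0.938 in the shSTN1-labelled libraries. They raise every log2 fold change relative to scaling by read totals alone, a fit that was not run. Small differences, and so the balance of higher and lower calls, depend on this scaling. Summed over its genes, the sterol enzyme branch stood at 1060 ± 21.9 CPM in the controls and 994 ± 12.2 in the shSTN1-labelled libraries (SD, n = 3 each), and the fatty acid branch at 3590 ± 150 and 2820 ± 76.8 CPM. Most of the fatty acid sum, and of its difference, came from FASN, SCD and ACLY. Their means were 1283, 822 and 576 CPM in the controls and 1085, 530 and 312 CPM in the shSTN1-labelled libraries. Without shSTN1 replicate 1 only 4 sterol enzymes were called higher, and 1 fatty acid gene was called higher without control replicate 3 or without shSTN1 replicate 3. Tested against a difference of 1.5-fold (edgeR's glmTreat), 1 sterol enzyme (FDFT1), 3 regulators and 5 fatty acid genes were called, of which ELOVL5 alone was higher.

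**Figure D1:**
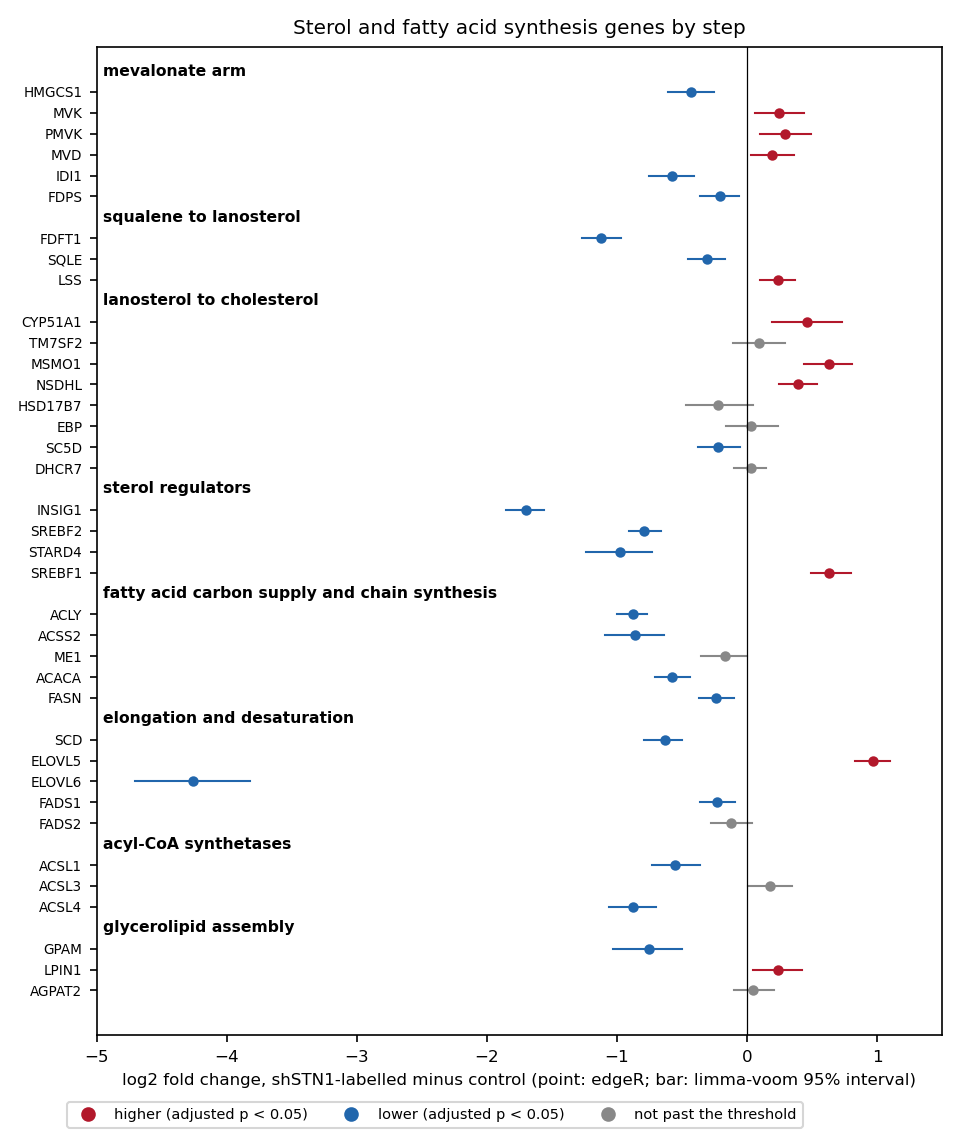
Log2 fold change (shSTN1-labelled minus control, edgeR) of the 37 genes in pathway order, with 95% intervals from limma-voom and colours for higher, lower and not called at an adjusted p of 0.05. ELOVL6 at -4.26 and INSIG1 at -1.70 lie farthest from 0, and calls in both directions are mixed along the sterol enzymes.

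The regulators moved in opposite directions. INSIG1 (ENSG00000186480.13, chr7:155297776-155310235, GRCh38, plus strand), the protein that retains SCAP, stood at 216, 227 and 215 CPM in the controls and at 70.6, 59.7 and 73.1 CPM in the shSTN1-labelled libraries. Every control library was above every shSTN1-labelled library, and the log2 fold change was -1.70 (95% limma-voom interval -1.85 to -1.56, edgeR adjusted p = 4.52e-20), 3.24-fold lower. SREBF2 (ENSG00000198911.12, chr22:41833079-41907308, plus strand), which encodes the sterol-responsive transcription factor, stood at 217, 232 and 227 CPM in the controls. Its levels were 134, 130 and 128 CPM in the shSTN1-labelled libraries. The spread within each group was small beside that gap, and the log2 fold change was -0.79 (-0.91 to -0.66, adjusted p = 5.67e-13, edgeR).

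SREBF1 (ENSG00000072310.17, chr17:17810399-17837002, minus strand) went the other way, from 87.0, 89.4 and 110 CPM in the controls to 153, 142 and 148 CPM. Control library 3 was the highest of its group and still below all 3 shSTN1-labelled libraries, with a log2 fold change of 0.63 (0.49 to 0.80, edgeR adjusted p = 6.63e-09). SREBF1 codes for both the SREBP1a and SREBP1c forms, which a count per gene does not separate. On CPM per kilobase of exon, SREBF1 made up 28.4 ± 2.49% of the summed level of the pair in the controls and 51.5 ± 0.835% in the shSTN1-labelled libraries (SD, n = 3 each), so the gene with the higher level changed from SREBF2 to SREBF1. STARD4, a carrier that moves sterol between membranes, was at 16.6, 18.0 and 16.2 CPM in the controls and at 8.35, 8.48 and 8.91 CPM in the other group. Its log2 fold change was -0.98 (-1.24 to -0.73, edgeR adjusted p = 1.33e-08). Antisense genes overlap SREBF2 and STARD4: SREBF2-AS1 held 3.9% and 4.87% as many reads as SREBF2 in the 2 groups, and STARD4-AS1 held 11.8% and 13.1% as many as STARD4.

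RAI1 on the opposite strand overlaps SREBF1 and had 7180 control reads and 9259 reads in the shSTN1-labelled libraries. The strand setting of the counting is not given in the sources used here, so reads that fall in such overlaps may be lost or shared.

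**Figure D2:**
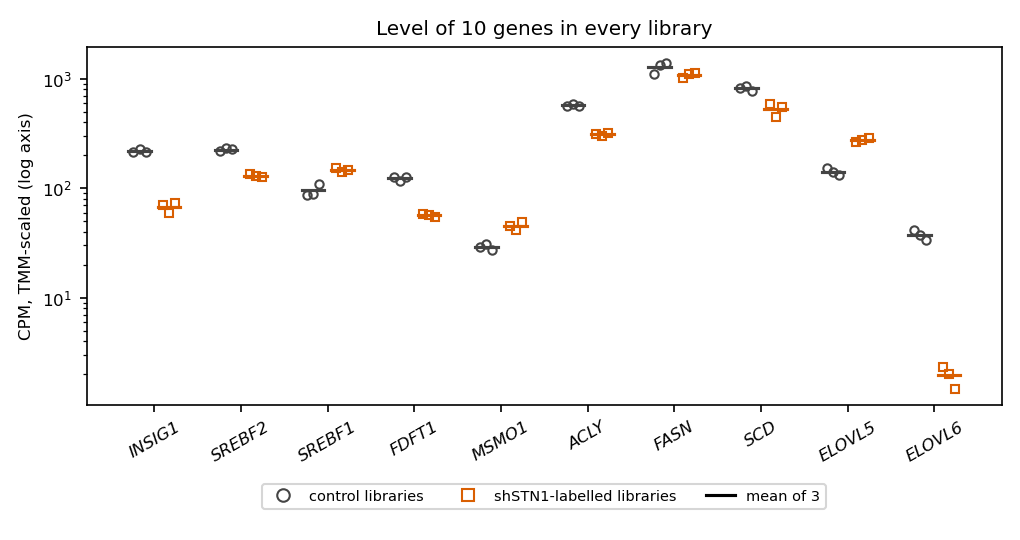
CPM on a log axis in each library for 10 of the genes, with circles for control libraries, squares for shSTN1-labelled libraries and a bar at the mean of 3. INSIG1 goes from 215 or more to 73.1 or less, ELOVL6 from 33.8 or more to 2.34 or less, and ELOVL5 from 152 or less to 266 or more, while the FASN groups overlap.

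SREBPs bind sterol regulatory elements and E-boxes close to gene starts, so the RefSeq promoter windows (GRCh38.p14, 250 bases before to 50 after each start) of the 34 matched genes were searched on both strands. The sterol regulatory element letters TCACNCCAC occurred in 2 of the 34 genes (5.88%), beside 1.39% of all 27305 genes with a window. The E-box letters CACGTG occurred in 4 of 34 (11.8%), ELOVL5, INSIG1, LSS and SC5D, beside 8.77% of all genes, and the LSS match lay after the start, beginning at base 41. CCAAT, the core of NF-Y sites, was added after the data were seen and occurred in 25 of 34 (73.5%), beside 39.7% of all genes. None of the 3 motifs contains another. A gene counted as matched if any of its windows matched, so more windows gave more chances of a match. The 34 genes had 50 windows and the 27305 genes had 35116. The excerpts below, written 5′ to 3′ on the gene's strand with the sterol element or E-box in capitals, show where those matches sit in genes that went down (SREBF2, ACSL1, INSIG1, SC5D) and up (ELOVL5).
SREBF2: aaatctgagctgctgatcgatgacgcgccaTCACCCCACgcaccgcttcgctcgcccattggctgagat
ACSL1: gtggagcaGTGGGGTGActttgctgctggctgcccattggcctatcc
INSIG1: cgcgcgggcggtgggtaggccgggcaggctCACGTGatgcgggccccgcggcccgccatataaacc
ELOVL5: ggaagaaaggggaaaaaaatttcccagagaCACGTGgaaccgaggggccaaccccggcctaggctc
SC5D: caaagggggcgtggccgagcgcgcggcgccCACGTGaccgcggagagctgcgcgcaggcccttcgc
The SREBF2 excerpt (chr22:41832942-41833010, plus strand) holds the sterol element 133 bases before a RefSeq start, and the ACSL1 excerpt (chr4:184805757-184805803, minus strand) holds it on the reverse strand, 242 bases before a start. The E-box lies 55 bases before a start in INSIG1 (chr7:155297793-155297858, plus strand), 211 bases before one in ELOVL5 (chr6:53349126-53349191, minus strand), and 131 or 212 bases before different starts in SC5D (chr11:121292610-121292675, plus strand). These starts are RefSeq's, and those of the GENCODE annotation, which gave the gene coordinates, differ. By GENCODE, the excerpts of INSIG1 (gene start 155297776), SC5D (121292453) and ACSL1 (184826818, minus strand) lie inside the gene. The ELOVL5 excerpt crosses the gene start (53349179, minus strand), with its E-box inside the gene. Of these excerpts, only that of SREBF2 lies before the GENCODE start (41833079). The E-box is shared by genes with differences of opposite sign, INSIG1 at -1.70 and ELOVL5 at 0.97 on the log2 scale. CCAAT matches are left in lower case, and the SREBF2 and ACSL1 excerpts hold one on the reverse strand (attgg). A match is a description of the letters and does not show that a factor binds there.

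All 6 genes of the mevalonate arm passed, 3 in each direction. HMGCS1, which condenses acetyl-CoA with acetoacetyl-CoA, stood at 60.5, 56.6 and 49.7 CPM in the controls and at 39.6, 45.2 and 38.7 CPM in the other group (log2 fold change -0.43, edgeR adjusted p = 5.75e-05). IDI1, the isopentenyl diphosphate isomerase, fell from 61.8, 51.9 and 56.8 CPM to 36.8, 37.6 and 39.5 CPM. For IDI1 the log2 fold change was -0.58 (edgeR adjusted p = 3.11e-07), the largest of the 6 in either direction. FDPS, which makes farnesyl diphosphate, was lower by a smaller margin, 90.5 ± 5.80 against 78.1 ± 3.74 CPM (SD, n = 3; difference -0.21 on the log2 scale, edgeR adjusted p = 0.0103).

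MVK, PMVK and MVD, the kinases and the decarboxylase that act between mevalonate and isopentenyl diphosphate, were called higher with log2 fold changes of 0.25, 0.29 and 0.19 (edgeR adjusted p = 0.0175, 0.00885 and 0.0423). PMVK overlapped between groups, with 36.9 CPM in control library 3 and 36.6 CPM in shSTN1 library 3. Each of these calls, and that of FDPS, was lost when 1 library was left out: MVD without control replicate 2 (adjusted p = 0.31) or shSTN1 replicates 1 (0.139) or 3 (0.0655), MVK without control replicate 1 (0.0602) or shSTN1 replicate 1 (0.117), PMVK without control replicates 1 (0.0708) or 2 (0.0565) or shSTN1 replicate 1 (0.0736), and FDPS without shSTN1 replicate 3 (0.0777), all by edgeR. MVD also missed the threshold with RLE size factors (0.0514), with upper-quartile factors (0.0984) and with DESeq2 (0.0676), and without a low-count filter MVD (0.132) and MVK (0.0642) both did. MMAB overlaps MVK on the opposite strand with 2377 and 1771 reads, and RUSC1-AS1 overlaps FDPS with 10.4% and 9.73% as many reads.

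Squalene formation held the greatest difference among the 17 sterol enzymes. FDFT1, squalene synthase, which commits farnesyl diphosphate to sterols, stood at 127, 116 and 128 CPM in the controls and at 57.7, 57.2 and 54.7 CPM in the shSTN1-labelled libraries. All 3 values of the second group lay below 116, and the log2 fold change was -1.12 (-1.27 to -0.97, edgeR adjusted p = 2.17e-15), 2.18-fold lower. SQLE, squalene epoxidase, went from 135, 137 and 122 CPM to 104, 105 and 109 CPM, a log2 fold change of -0.31 (edgeR adjusted p = 1.46e-04). LSS, which closes the ring to lanosterol, was slightly higher, at 97.1 ± 4.15 against 114 ± 3.36 CPM (SD, n = 3; difference 0.24 on the log2 scale, edgeR adjusted p = 0.00244).

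Between lanosterol and cholesterol, 3 of 8 enzymes were higher, 1 lower and 4 not called. The 3 that were higher were CYP51A1, MSMO1 and NSDHL. MSMO1, the methylsterol oxidase, stood at 29.3, 30.7 and 27.4 CPM in the controls and at 45.0, 41.2 and 49.5 CPM in the shSTN1-labelled libraries (log2 fold change 0.63, 0.44 to 0.81, edgeR adjusted p = 2.62e-07). NSDHL, the decarboxylating sterol dehydrogenase, went from 57.3 ± 2.26 to 75.3 ± 0.710 CPM (log2 fold change 0.39, edgeR adjusted p = 1.99e-05). CYP51A1, the lanosterol demethylase, was at 8.71, 10.2 and 10.9 CPM and then at 12.2, 13.5 and 15.5 CPM (log2 fold change 0.46, edgeR adjusted p = 0.00236).

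SC5D, the lathosterol oxidase, was lower at 57.0 ± 5.40 against 49.1 ± 2.22 CPM (difference -0.22 on the log2 scale, edgeR adjusted p = 0.0206), a call lost without control replicate 1 (0.103) or shSTN1 replicate 1 (0.099). TM7SF2, HSD17B7, EBP and DHCR7 did not pass. Their 95% intervals on the log2 scale ran from -0.11 to 0.29, from -0.47 to 0.05, from -0.16 to 0.24 and from -0.10 to 0.15 in that order. HSD17B7, at -0.22, passed without control replicate 2 (log2 fold change -0.31, edgeR adjusted p = 0.0421) and was at -0.12 without control replicate 3 (0.432). DHCR7, the last reductase of the pathway, had the highest level per kilobase of exon of the 17 sterol enzymes in both groups, at 39.4 ± 2.01 and 40.1 ± 0.974 CPM per kilobase. TM7SF2 overlaps VPS51, which had 318% and 325% as many reads, and the pseudogene HSD17B7P2 held 85 and 74 reads beside 837 and 700 for HSD17B7.

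Genes that supply carbon to fatty acids and build the chain were lower or not called. ACLY (ENSG00000131473.17, chr17:41866908-41930542, minus strand), ATP citrate lyase, which makes cytosolic acetyl-CoA, stood at 568, 590 and 570 CPM in the controls and at 314, 302 and 320 CPM in the shSTN1-labelled libraries. Levels in the latter were 54.2% of the control level, a difference of -0.88 on the log2 scale (edgeR adjusted p = 1.23e-14). ACSS2, which makes acetyl-CoA from acetate, fell to 55.0% (23.1 ± 0.201 against 12.7 ± 1.09 CPM, edgeR adjusted p = 2.07e-08). GGT7, on the opposite strand to ACSS2 and overlapping it, had 3339 and 987 reads beside 1422 and 760 for ACSS2.

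ACACA, acetyl-CoA carboxylase and the committed step to malonyl-CoA, went from 130, 145 and 137 CPM to 90.4, 93.3 and 93.1 CPM (log2 fold change -0.58, -0.71 to -0.44, edgeR adjusted p = 4.12e-09). FASN (ENSG00000169710.9, chr17:82078333-82098332, minus strand), fatty acid synthase, changed much less, from 1115, 1346 and 1388 CPM to 1026, 1099 and 1128 CPM. Control library 1 lay within the range of the shSTN1-labelled libraries, and the log2 fold change of -0.24 (-0.37 to -0.10) passed with an edgeR adjusted p = 0.0026. ME1, the malic enzyme that yields NADPH, did not pass (log2 fold change -0.17, -0.35 to 0.00, edgeR adjusted p = 0.0732), although its groups did not overlap. It passed without control replicate 3 (edgeR adjusted p = 0.0366) and with upper-quartile factors (0.0317), and was at -0.10 without shSTN1 replicate 1 (0.358).

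Elongation and desaturation held the greatest differences of the 37 genes, in opposite directions. ELOVL6 (ENSG00000170522.9, chr4:110045846-110199199, minus strand), the elongase that takes palmitate to stearate, stood at 41.5, 37.7 and 33.8 CPM in the controls and at 2.34, 2.02 and 1.48 CPM in the shSTN1-labelled libraries. These rest on 2328 and 118 reads, and the log2 fold change was -4.26 (-4.71 to -3.82, edgeR adjusted p = 1.41e-22), 19.1-fold lower. ELOVL5 (ENSG00000012660.14, chr6:53267398-53349179, minus strand), which elongates polyunsaturated chains, rose from 152, 142 and 131 CPM to 266, 278 and 285 CPM. Its log2 fold change was 0.97 (0.83 to 1.10, edgeR adjusted p = 9.84e-15), 1.95-fold higher.

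SCD (ENSG00000099194.6, chr10:100347124-100364834, plus strand), the stearoyl-CoA desaturase that makes oleate, was at 820, 865 and 781 CPM in the controls and at 589, 452 and 550 CPM in the other group. The shSTN1-labelled libraries spread more than the controls, with a coefficient of variation of 13.3%, yet stayed below them (log2 fold change -0.63, -0.79 to -0.50, edgeR adjusted p = 2.93e-09). FADS1 was lower, at 142 ± 6.65 against 121 ± 3.06 CPM (difference -0.23 on the log2 scale, edgeR adjusted p = 0.00274), and FADS2 did not pass (-0.12, -0.28 to 0.04, edgeR adjusted p = 0.169). These front-end desaturases act on polyunsaturated chains. FADS1 and FADS2 overlap each other on opposite strands, and FEN1 overlaps FADS2 with 8232 and 5702 reads.

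Of the acyl-CoA synthetases, which activate fatty acids for use, ACSL4 and ACSL1 were lower and ACSL3 was not called. ACSL4, which prefers arachidonate, went from 57.2, 62.3 and 54.6 CPM to 28.8, 32.9 and 33.2 CPM (log2 fold change -0.88, -1.06 to -0.70, edgeR adjusted p = 1.15e-10). ACSL1 went from 37.9, 36.8 and 34.6 CPM to 23.5, 26.1 and 25.3 CPM (log2 fold change -0.55, edgeR adjusted p = 3.81e-06). ACSL3, found on lipid droplets, had a log2 fold change of 0.18 (0.01 to 0.35) and an edgeR adjusted p = 0.0543, and passed without control replicate 1 (0.00736), with a filter at 5 CPM (0.0418) and with limma-voom (0.0478). Without control replicate 3 the ACSL3 value was 0.07 (edgeR adjusted p = 0.43).

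In glycerolipid assembly, GPAM, the mitochondrial glycerol-phosphate acyltransferase, stood at 19.8, 21.7 and 19.0 CPM in the controls and at 9.82, 14.7 and 11.5 CPM in the shSTN1-labelled libraries (log2 fold change -0.75, edgeR adjusted p = 3.44e-06). LPIN1, a phosphatidate phosphatase, was called higher by a small margin (29.5 ± 1.79 against 34.9 ± 2.45 CPM (difference 0.24 on the log2 scale, edgeR adjusted p = 0.0201), and lost the call without control replicate 3 (0.0937) or shSTN1 replicate 3 (0.122), and with no low-count filter (0.0716). AGPAT2, the next acyltransferase, did not pass (0.05, -0.10 to 0.21, edgeR adjusted p = 0.526).

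Compared per kilobase of exon, the most abundant genes in the controls were 3 fatty acid genes, SCD at 153 ± 7.84, FASN at 137 ± 15.7 and ACLY at 110 ± 2.3 CPM per kilobase, of which SCD and FASN overlapped at the edges of their SDs. In the shSTN1-labelled libraries FASN stood at 116 ± 5.63 and SCD at 98.8 ± 13.1 CPM per kilobase, followed by ELOVL5 at 72.5 ± 2.62 and ACLY at 59.8 ± 1.81. ELOVL5 thus moved from rank 7 to rank 3 of 37, INSIG1 from rank 4 to rank 11 and ELOVL6 from rank 30 to rank 37. Between libraries of a group the coefficient of variation ran from 0.873% to 14.5% in the controls and from 0.943% to 22.6% in the shSTN1-labelled libraries, where ELOVL6 at 22.6% and GPAM at 20.5% varied most.

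In some families of enzymes that share a kind of reaction the proportions differed between the groups, and in others they were closer. The families were assembled after the values of the 37 genes were known, and shares are percentages of the family's summed CPM per kilobase (mean ± SD, n = 3). Among the 7 elongases, ELOVL5 made up 38.6 ± 1.76% in the controls and 51.0 ± 2.16% in the shSTN1-labelled libraries, while ELOVL6 went from 5.37 ± 0.4% to 0.187 ± 0.0411%. ELOVL4, the elongase of very long chains, went from 10.5 ± 1.41% to 0.972 ± 0.275%, and ELOVL1 lay within the spread at 34.9 ± 2.44% and 37.6 ± 1.87%. Of the glycerol-phosphate acyltransferases, GPAT4 held 61.6%, 59.5% and 62.9% in the controls and 31.7%, 27.2% and 32.1% in the other group, and GPAT3 went from 27.3 ± 1.0% to 62.9 ± 1.79%. GPAM, the mitochondrial form, held 11.4 ± 0.774% and 6.78 ± 0.967%. ACSL3 made up 39.3 ± 2.61% of the acyl-CoA synthetases in the controls and 54.9 ± 1.33% in the shSTN1-labelled libraries, with ACSL4 at 36.2 ± 2.23% and 24.2 ± 0.982%. SCD held 94.2 ± 0.324% and 97.8 ± 0.347% of its pair with SCD5.

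**Figure D3:**
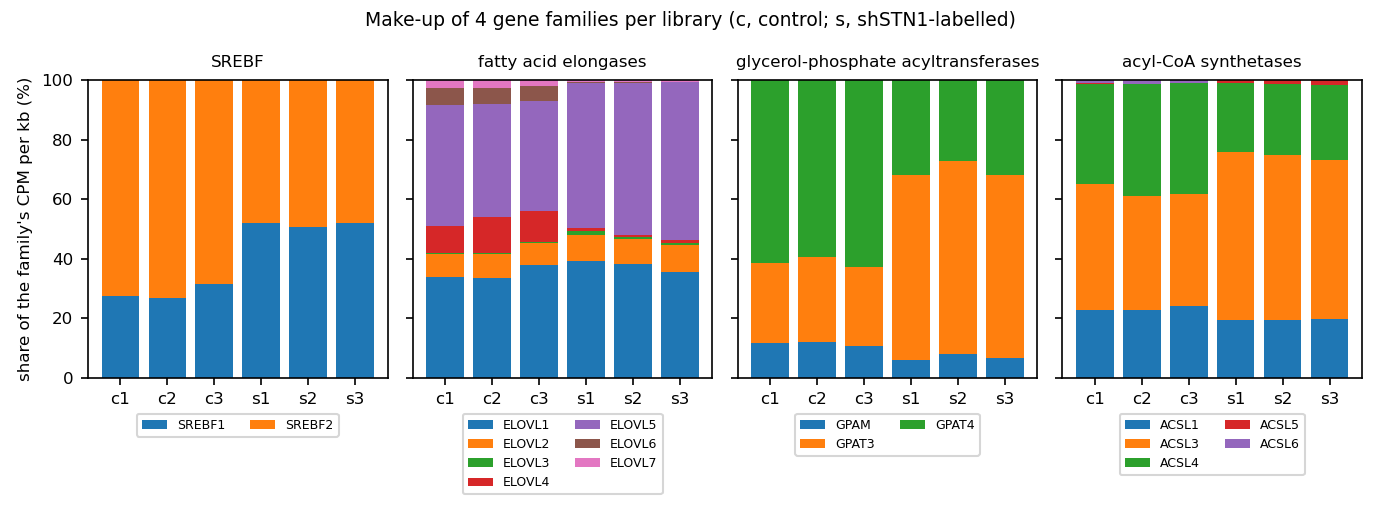
Stacked bars of the share (%) of each gene in the summed CPM per kilobase of its family, 1 bar per library (c1 to c3, control; s1 to s3, shSTN1-labelled), for SREBF genes, elongases, glycerol-phosphate acyltransferases and acyl-CoA synthetases. GPAT3 and GPAT4 exchange the leading place (GPAT3 means of 27.3% and 62.9%), SREBF1 goes from 28.4% to 51.5% of its pair, and ELOVL6 from 5.37% to 0.187% of the elongases.

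Other genes of the pathway were taken from 6 lists. Of 10 genes for SREBP processing and other sterol or isoprenoid enzymes, 2 were higher, 6 lower and 2 not called (median log2 fold change -0.28). LBR, a nuclear envelope protein with sterol reductase activity, was at 255, 274 and 229 CPM in the controls and at 91.3, 88.5 and 83.1 CPM in the other group (-1.53, edgeR adjusted p = 2.89e-19). SCAP, the SREBP escort, was lower too (-0.68, edgeR adjusted p = 2.7e-10), and ERG28, a scaffold of the demethylation enzymes, was higher (0.86, edgeR adjusted p = 3.56e-10). SCAP and INSIG1, which bind each other, were thus both lower.

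Of 14 genes for sterol uptake, efflux and esterification, 13 were tested, 5 higher, 6 lower and 2 not called (median -0.09). LIPA, the lysosomal lipase that frees cholesterol from lipoprotein esters, was higher at 101, 88.1 and 95.2 against 210, 205 and 215 CPM (1.15, edgeR adjusted p = 1.44e-16). The lipoprotein receptor VLDLR (-2.65, edgeR adjusted p = 8.38e-12) and the sterol exporter ABCG1 (-2.67, edgeR adjusted p = 2.19e-09) were lower, from 488 to 76 and from 244 to 37 reads.

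Among 16 other fatty acid synthesis genes, 15 were tested, 6 higher and 9 lower (median -0.24), with SCD5 at -2.08 (edgeR adjusted p = 4.16e-18), ELOVL4 at -2.87 (9.81e-18) and MLXIPL, the carbohydrate-responsive activator ChREBP, at -1.92 (2.88e-14). Of 13 other acyl-CoA synthetase and glycerolipid genes, 6 were higher, 3 lower and 4 not called (median 0.08). DGAT2, which makes triglyceride, was higher at 20.5, 18.4 and 22.2 against 55.8, 57.3 and 60.9 CPM (1.51, edgeR adjusted p = 5.55e-16). GPAT3 was higher (1.20, edgeR adjusted p = 1.44e-12) and GPAT4 lower (-1.03, edgeR adjusted p = 1.43e-13).

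Fatty acid oxidation genes, which break the chains down, gave 5 higher, 4 lower and 6 not called of 15 (median 0.04). CPT1A, which gates entry of acyl chains into mitochondria, was at 107, 118 and 110 CPM in the controls and at 286, 253 and 270 CPM in the shSTN1-labelled libraries (1.28, edgeR adjusted p = 8.32e-18). ACADVL, the very long chain dehydrogenase, was higher (1.24, edgeR adjusted p = 6.02e-18) and HADH, the short chain hydroxyacyl dehydrogenase, lower (-1.44, edgeR adjusted p = 2.97e-17). Summed over the list, levels were 1030 ± 40.2 CPM in the controls and 1400 ± 20.8 CPM in the other group, a sum that was not tested. The difference in this sum came mostly from ACADVL, with means of 171 and 401 CPM, and CPT1A, with means of 111 and 270 CPM.

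Of 10 fatty acid uptake and binding genes, 8 were tested, 1 higher and 7 lower (median -1.06). SLC27A4, an acyl-CoA synthetase of the fatty acid transport family, was lower (-1.15, edgeR adjusted p = 4.55e-15). SLC27A2 had 405 reads in the controls and 3 in the other group (edgeR adjusted p = 6.05e-16), and SLC27A6 had 177 and 0, at least 57.4-fold lower. The fitted values of these 2 genes depend on the prior count. They are the lowest of the list, and its median lies between SLC27A4 and SLC27A5 (-0.98), so it does not depend on their size.

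Position was not used in choosing the genes, and their chromosomal neighbours were compared. For each gene the median log2 fold change of the tested genes outside the 37 that lie within 1 Mb was taken. It was at least 0.5 in size for 9 of the 37 (24.3%), 7 of these with the sign of the gene itself. Over the 17212 tested genes with such neighbours, 30.3% had a median of that size, and 72.7% of those had the sign of the gene, so the 37 genes lay near that background. Within 0.5 Mb the counts were 13 of 37, 8 with the same sign, beside 36.4% and 72.0% of tested genes, and within 2 Mb they were 9 and 6, beside 25.3% and 73.8%. Over all genes tested, 38.5% were called lower and 35.6% higher, the shares to set beside the neighbour counts that follow. Around FDFT1 the median was -1.89 over 18 genes, 11 of them called lower and 2 higher. It was -3.51 over the 12 genes within 0.5 Mb and -0.87 over the 27 within 2 Mb. All 8 tested neighbours of STARD4 were lower (median -1.01), and of 47 neighbours of SREBF2 32 were lower and 2 higher (median -0.59). ELOVL6 had a neighbour median of -0.64 over 9 genes, 6 lower and 0 higher, against -4.26 for ELOVL6 itself. ACSL4 had the lowest neighbour median, -8.45 over 8 genes, but -0.20 over the 2 genes within 0.5 Mb and -0.81 over 18 genes within 2 Mb, and fitted values this low depend on the prior count.

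INSIG1 had neighbour medians of -0.30 within 1 Mb (9 genes), -0.31 within 0.5 Mb and -0.26 within 2 Mb, against -1.70 of its own. ELOVL5, higher itself, had neighbour medians below 0 in each window, at -0.27 within 1 Mb (13 genes), -1.06 within 0.5 Mb (6 genes) and -0.74 within 2 Mb (15 genes). For ACLY the sign depended on the window, with -0.33 within 1 Mb (52 genes), 0.29 within 0.5 Mb and -0.21 within 2 Mb. FASN, lower itself, had neighbour medians of 0.60 within 1 Mb (80 genes), 0.48 within 0.5 Mb and 0.57 within 2 Mb. GPAM had medians of 0.51 within 1 Mb, over 6 genes, and 0.58 within 0.5 Mb, over 3 genes, but -0.03 within 2 Mb, over 20 genes. DNA copy number was not measured, and its part in these values was not tested.

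**Figure D4:**
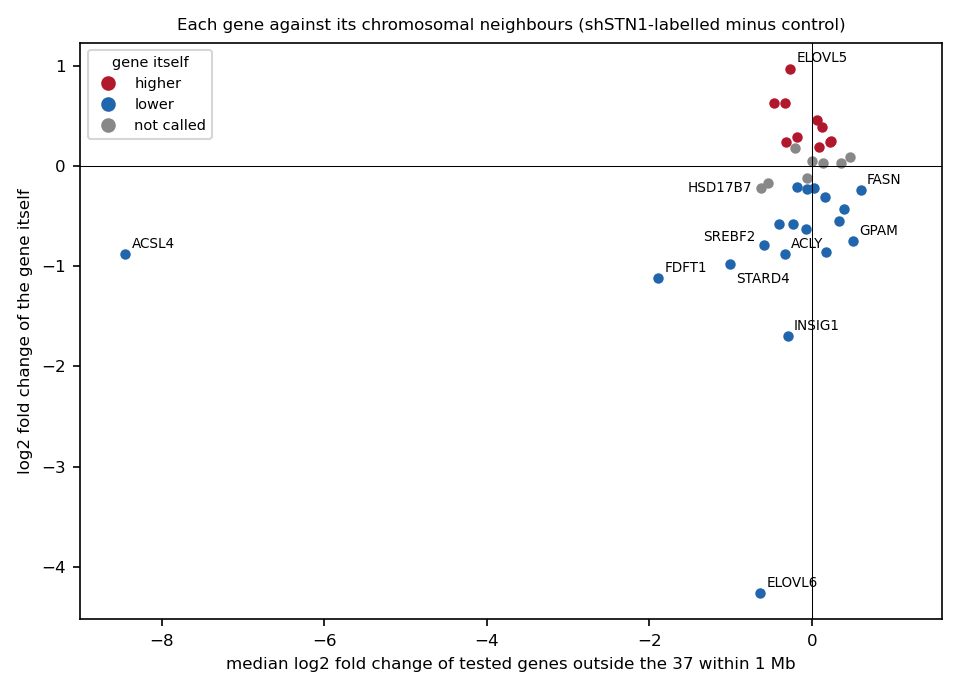
Log2 fold change of each of the 37 genes (y axis) against the median log2 fold change of tested genes outside the 37 within 1 Mb (x axis), coloured by the call of the gene itself. FDFT1, STARD4, SREBF2 and ACSL4 lie to the left with lowered neighbours, and INSIG1, ACLY and ELOVL5 lie within 0.33 of 0 on the x axis.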

How the data were processed

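The deposited table holds raw counts of reads per gene for 6 bulk RNA libraries, which the authors did not normalize. Reads had been processed with STAR 2.7.2b, featureCounts 2.0.1, FastQC and cutadapt on GRCh38, per the submitters' processing notes. The sources used here do not give an annotation release or a strand setting. Of 60668 rows, 45 second pseudoautosomal copies were left out, and 58516 of the 60623 kept were found in GENCODE 29, which gave coordinates and exon lengths. Chi-square tests between libraries of 1 group gave 3.00 to 8.81 per degree of freedom, above sampling noise, so each library counted separately.

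The table was fitted with edgeR 4.0.16 (R 4.3.3): filterByExpr, TMM factors, robust quasi-likelihood test of shSTN1 minus control without covariates, and Benjamini-Hochberg adjustment over 17451 genes with a threshold of 0.05. CPM used TMM-scaled library sizes. Intervals (95%) came from limma-voom (limma 3.58.1). DESeq2 1.42.0, RLE and upper-quartile factors, 2 other filters, a replicate block, stricter thresholds and leaving out each library were alternatives. The scripts were tested on simulated data. The gene list, the context and marker lists and the tests were chosen with earlier results of these data known. Every member is accounted for, and from each context list up to 3 tested genes with the smallest adjusted p are named. Promoter windows are RefSeq's (GRCh38.p14); 3 of the 37 genes (SQLE, FASN and FDFT1) were not matched. Figures were drawn with matplotlib 3.10.9.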

Additional observations from a re-analysis of the deposited data

How the results depend on the processing

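Over 15 other settings, 11 of the 37 genes kept their direction and their side of the threshold throughout. These include TM7SF2 and FADS2, which were not called in the main fit. The test against 1.5-fold, which asks a stricter question, by itself took the call from 20 of the 37 genes. Demanding more than 1.5-fold (edgeR's glmTreat) left 7306 of 12929 genes called, 1 of 13 sterol enzymes (0 higher, 1 lower), 5 of 12 fatty acid genes (1 higher, 4 lower) and 0 regulators higher. A single fatty acid gene was higher (1, not 2) with no low-count filter and at an adjusted p under 0.01. With 1 library left out, 12586 to 12857 genes were called, 9 to 13 sterol enzymes (4 to 7 higher, 5 to 7 lower), 11 to 13 fatty acid genes (1 to 3 higher, 10 to 11 lower) and 4 regulators (1 higher, 3 lower). Leaving a library out changes the sample size, and for other changes the cause was not tested. Genes that were not called changed sign near 0: AGPAT2 to -0.0073 without shSTN1 replicate 1; DHCR7 to -0.0082 with upper-quartile factors, -0.0043 with no low-count filter and -0.02 without control replicate 1; EBP to -0.0062, -0.0016 and, without control replicate 2, -0.06. Their highest values with 1 library left out were 0.12, 0.05 and 0.08. Same-numbered libraries did not deviate together (correlations -0.0123, 0.0171 and -0.0337), so the numbers were not taken as pairs. With the replicate number as a block 12742 genes were called, and among the 37 genes only ACSL3 changed its call (adjusted p = 0.04). ELOVL6, with 118 reads in the shSTN1-labelled libraries and a coefficient of variation of 22.6% there, had the widest interval of the 37 genes (-4.71 to -3.82), and counting error was not separated from spread between libraries.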
